A study of Homo sapiens with 27 samples.

Results

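The D cyclins, their kinases CDK4 and CDK6, and the CDK inhibitors that act on them were followed through an RNA-seq series on ZEB1 silencing. ZEB1 is a transcription factor that the authors describe as a master regulator of the epithelial-mesenchymal transition. The genes followed were taken by name, as CCND1, CCND2, CCND3, CDK4, CDK6, CDKN1A, CDKN1B, CDKN1C, CDKN2A and CDKN2B, which are 10 of the 57165 genes in the deposited count table. The series holds 27 libraries in 9 groups of 3 from SUM159 and MDA-MB-231, established human triple negative breast cancer lines used as models of the claudin-low mesenchymal subtype. Within each line, untransduced wild type cells were set against cells that carried the lentiviral vector pLV dCas9-KRAB without a guide (No gRNA) and against cells that carried it with guides to the ZEB1 promoter. dCas9-KRAB is a Cas9 without nuclease activity that carries a transcriptional repressor domain. It was expressed together with puromycin resistance, and the guides were expressed from the U6 promoter.

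The SUM159 groups were wild type, No gRNA, gRNA 4 (a single guide) and All gRNA (the pool of guides) in sequencing run 1, and wild type again in run 2. The MDA-MB-231 groups, all of run 2, were wild type, No gRNA and a pair of targeted groups that are called set 1 and set 2 here. The labels of these 6 targeted MDA-MB-231 libraries contradict each other on which group had gRNA 4 and which had All gRNA, so no guide name was assigned to either. Every transduced cell had also been selected in puromycin, and the wild type cells had not, so vector and selection cannot be told apart. The replicates are described by the study as individual clones, and the spread between 3 libraries is therefore a spread between clones of 1 line. The lines were grown in different media, with insulin and hydrocortisone for SUM159 only, so line and medium cannot be told apart.

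Progression through G1 is gated by the retinoblastoma protein, which holds E2F transcription factors inactive until it is phosphorylated. D cyclins, induced by growth factor signalling, bind and activate CDK4 and CDK6, which begin that phosphorylation, and released E2F then drives the genes of DNA replication. The INK4 inhibitors (p16 from CDKN2A, p15 from CDKN2B) bind CDK4 and CDK6 directly, while the CIP/KIP inhibitors (p21 from CDKN1A, p27 from CDKN1B, p57 from CDKN1C) act mainly on CDK2 complexes. CCND1 is frequently amplified or overexpressed in breast cancer, CDKN1A is the classical target of p53, and the CDKN2A and CDKN2B locus on chromosome 9 is often deleted in tumours.

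ZEB1 binds the E-box letters CACCTG and their complement CAGGTG. These letters were searched for in the RefSeq promoter windows (GRCh38.p14, 250 bases before to 50 bases after a start site), of which 11 belong to 7 of the genes. CCND1, CCND2 and CDKN1C have no window in that table. The letters were found in 1 of the 11 windows, against 20.6% of all 35116 windows, and no match says only that the letters are not in a window. That match lies at -237 to -232 from a start site of CCND3 and is the only one among these genes. It is shown in capitals with its flanks, a stretch at chr6:42048908-42048937 on the minus strand.
CCND3: ccccgccgcccaCACCTGagcctccgtggc

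CDKN1A (GRCh38 chr6:36676460-36687337, plus strand) was the gene that moved farthest between groups among those with substantial counts, and none of its windows holds the ZEB1 letters. The 250 bases before one of its start sites, at chr6:36678464-36678713 on the plus strand, are given with the 4 copies of the GC box GGGCGG in capitals. The GC box, the letters bound by SP1, was chosen after the values were seen. It occurs in 42.6% of all windows when the same 250 bases are searched.
CDKN1A: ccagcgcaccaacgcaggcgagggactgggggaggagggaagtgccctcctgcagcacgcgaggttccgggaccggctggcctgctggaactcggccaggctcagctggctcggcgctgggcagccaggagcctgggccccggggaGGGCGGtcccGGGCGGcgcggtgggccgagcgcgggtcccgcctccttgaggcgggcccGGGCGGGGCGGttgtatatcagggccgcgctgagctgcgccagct

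Library totals ran from 15461200 to 21473800 estimated counts. Levels are given as CPM (counts scaled to library size by TMM), as mean ± SD over 3 libraries. As a check of the labels, ZEB1 in SUM159 went from 73.7 ± 3.30 CPM with the empty vector to 3.46 ± 1.01 under the single guide and 0.737 ± 0.331 under the pool. The MDA-MB-231 values were 110 ± 10.1 CPM for No gRNA, 5.33 ± 0.520 in set 1 and 4.69 ± 0.888 in set 2, so the targeted libraries went with their labels in both lines, and ZEB1 did not pass the test between the sets (log2 difference -0.18, SE 0.23, adjusted p = 0.528). In MDA-MB-231 ZEB1 was also higher with the empty vector than in the wild type (110 against 70.0 ± 4.27 CPM, log2 difference 0.60, SE 0.08, adjusted p = 5.16e-05). The epithelial genes whose absence defines the claudin-low subtype (EPCAM, CDH1, CLDN3, CLDN4) summed to at most 6.51 CPM in every SUM159 library. They summed to 75.5 to 86.2 CPM in MDA-MB-231 wild type and No gRNA, so those defining genes were low but not absent there, and to 434 to 509 CPM in set 1 and set 2. Immune markers summed to at most 5.78 CPM in any library.

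Of the 10 genes, 8 were read well enough to describe in at least one line, and the levels by library show where each stood.

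**Figure D1:**
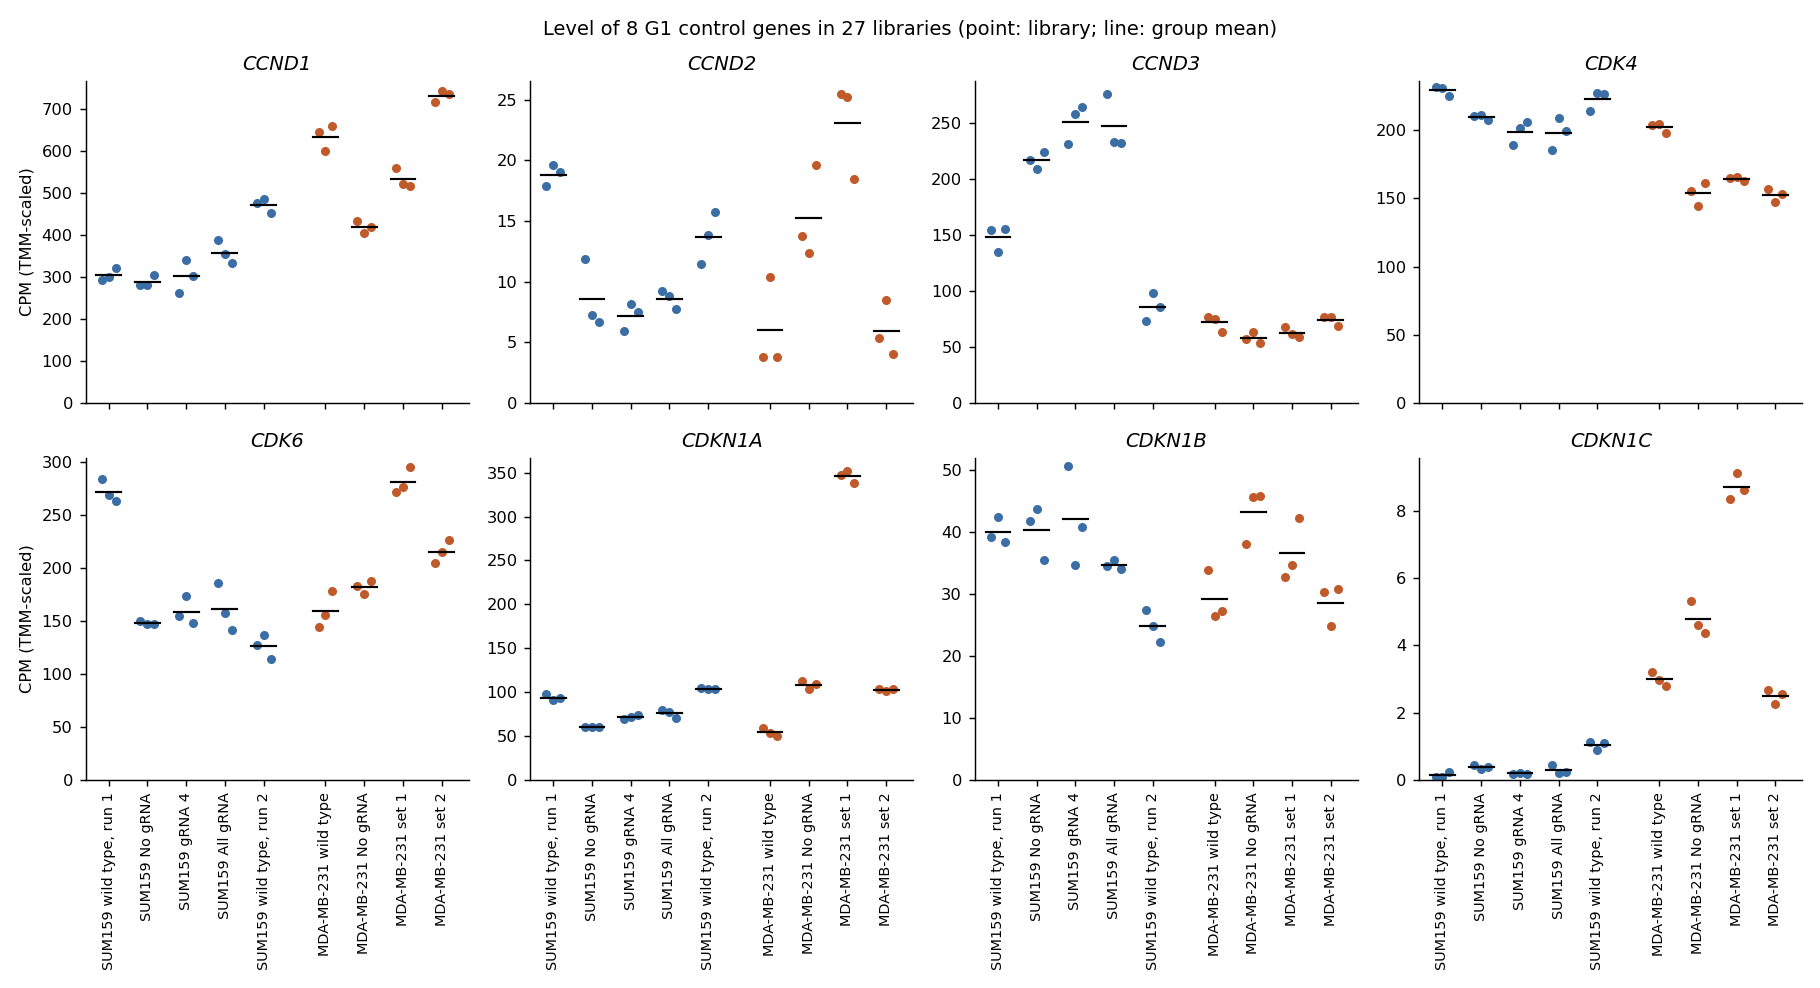
Level in TMM-scaled CPM (vertical axes, from 0, a separate scale for each gene) of 8 G1 control genes in the 27 libraries, SUM159 in blue and MDA-MB-231 in orange, with points for libraries and lines for the means of 3. CDKN1A in MDA-MB-231 set 1 lies between 338 and 352 CPM, and the 9 SUM159 libraries that carry the vector lie above all others for CCND3, at 209 CPM or more.

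Counts cannot be compared between genes without a transcript length, and the order of the genes moved with the length chosen. Per kilobase of canonical transcript, CCND1 made up 80.4% of the D cyclin level in MDA-MB-231 wild type, 48.6% in SUM159 wild type of run 1 and 71.4% in SUM159 wild type of run 2. With the median length of annotated transcripts these shares were 90.2%, 68.2% and 85.1%. CCND2 was the least abundant D cyclin by either length in SUM159 wild type of run 1, at 1.96% and 0.378% of the class. CDK4 made up 88.8% of the CDK4 and CDK6 level in MDA-MB-231 wild type by the canonical length and 56.1% by the median length. In SUM159 wild type of run 1 it was 84.1% by the former and 45.9% by the latter, so which kinase was the more abundant there depended on the length. Among the CIP/KIP inhibitors CDKN1A led by both lengths in these wild type groups, with 64.9% and 71.9% in MDA-MB-231 and 72.7% and 79.5% in SUM159 of run 1.

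Across the 9 groups the range of the levels differed widely between genes. The highest group mean of CDK4 was 1.5 times the lowest and that of CDKN1B 1.74 times, while the ratio was 2.23 for CDK6, 2.53 for CCND1, 3.86 for CCND2, 4.31 for CCND3 and 6.41 for CDKN1A. With the groups of each gene put in order of their means, 8 of 8 neighbouring pairs of CCND2 and 7 of 8 of CDKN1B overlapped in their libraries. For CCND1 only 2 of the 8 neighbouring pairs overlapped, and for CDKN1A 3 of 8. CDKN1C ran from 0.127 ± 0.0971 CPM in SUM159 wild type of run 1, where no library held more than 4.69 counts, to 8.71 ± 0.396 CPM in MDA-MB-231 set 1.

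Within each line the comparisons against a control were the vector without guide against the wild type and each targeted group against No gRNA. Differences were taken from a voom-limma fit and called at a Benjamini-Hochberg adjusted p under 0.05 over all genes tested. The number of genes called is given beside the share of all genes called the same way. In SUM159, 7 of the 10 genes passed the filter on low counts (CDKN1C, CDKN2A and CDKN2B did not), and in MDA-MB-231 8 did (all but CDKN2A and CDKN2B). These were judged on the counts of all groups of the line together. No gRNA exceeded the wild type in SUM159 for 1 of 7 (21.0% of all genes) and was lower for 4 (21.9%). In MDA-MB-231 it was higher for 4 of 8 (26.2%) and lower for 3 (27.6%). The median log2 difference of the genes was -0.14 in SUM159 and 0.33 in MDA-MB-231, and that of all genes was 0.02 and 0.00.

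In SUM159 fewer genes were called with targeting than with the vector, both on the list and among all genes. With All gRNA 2 of 7 were higher than No gRNA (5.93% of all genes) and 0 were lower (4.89%), and with gRNA 4 1 of 7 was higher (6.11%) and 0 were lower (4.91%). By the moderated limma test, edgeR and DESeq2 alike 0 of the 7 differed between All gRNA and gRNA 4 (0.944% of all genes), and 1 had an unadjusted p under 0.05. In MDA-MB-231, set 1 was higher than No gRNA for 4 of 8 (20.4%) and lower for 0 (17.3%). Set 2 was higher for 3 of 8 (27.3%) and lower for 3 (25.1%). Set 2 against set 1 gave 2 higher (25.2%) and 4 lower (26.3%). The targeted groups of a line share their No gRNA libraries, so their differences from them are not independent. The vector comparison uses the same No gRNA libraries with the opposite sign, so it is not independent of them either.

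Few of these differences were called as larger than 2-fold. Some estimates exceeded it without passing, such as those of CCND2 with the vector (log2 difference -1.18 in SUM159 and 1.44 in MDA-MB-231). TREAT, which tests against a log2 fold change of 1 in place of 0, called CDKN1A in set 1 against No gRNA (1 of 8, against 1.47% of all genes) and CDKN1A and CDKN1C in set 2 against set 1 (2 of 8, against 3.07%). It called 0 genes of the list in No gRNA against wild type in SUM159 (1.53%) or MDA-MB-231 (3.60%), in All gRNA (0.396%) or gRNA 4 (0.390%) against No gRNA, in set 2 against No gRNA (4.14%) and in SUM159 against MDA-MB-231 wild type (29.1%). Over these 6 comparisons with none, TREAT gave 1 gene at an unadjusted p under 0.05, edgeR called 1 and DESeq2 called 0.

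**Figure D2:**
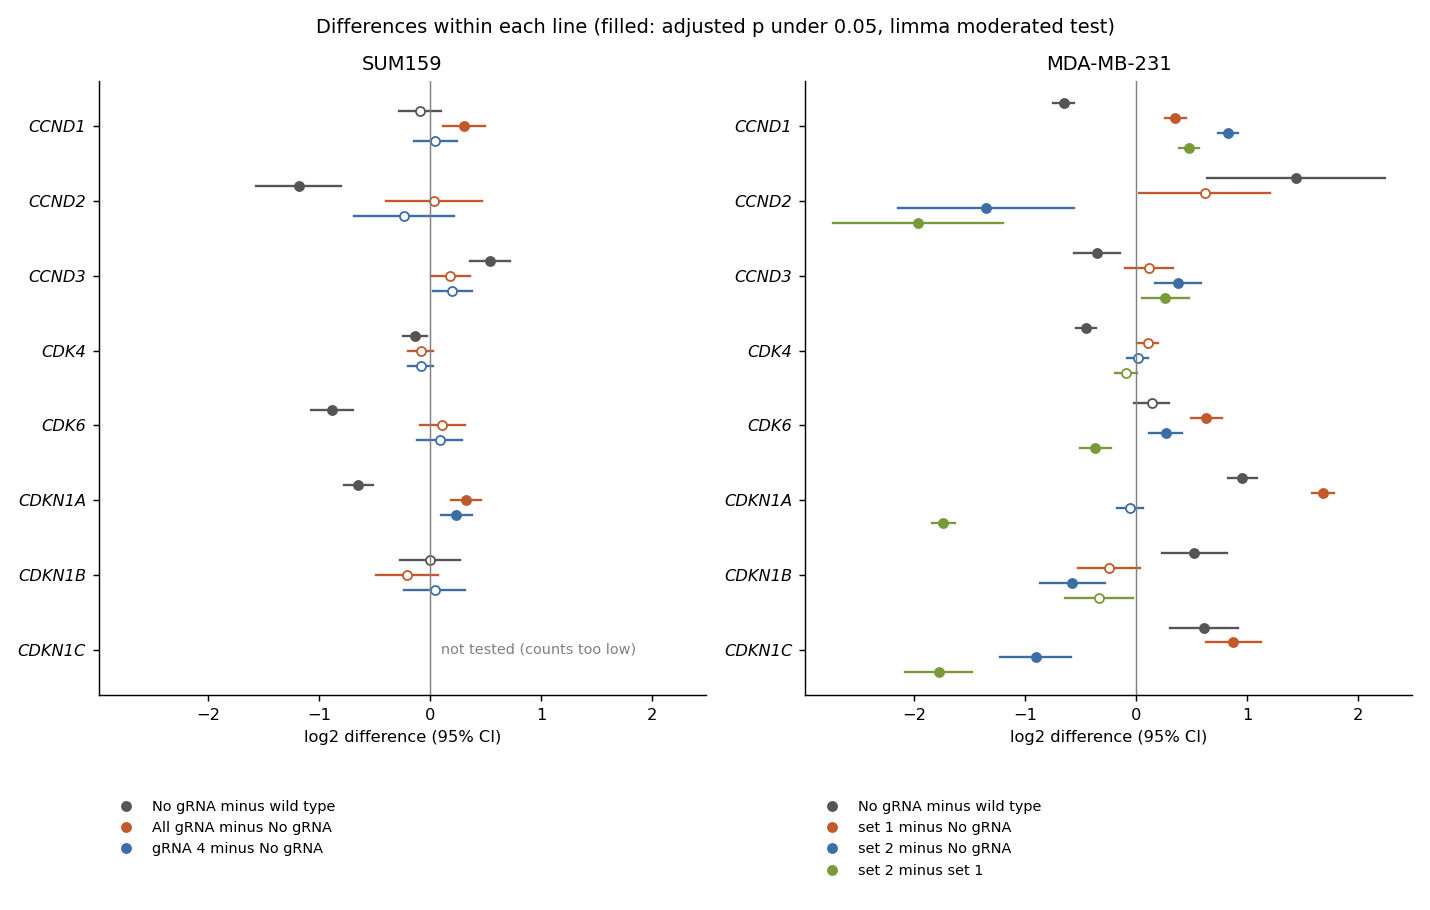
Log2 difference with its 95% confidence interval (horizontal axis) for each gene in the comparisons within SUM159 (left) and MDA-MB-231 (right), filled where the limma adjusted p was under 0.05. CDKN1A reaches 1.68 in set 1 against No gRNA and -1.74 in set 2 against set 1, while CDK4 stays within 0.45 of 0 throughout.

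CCND1, the D cyclin most often deregulated in breast cancer, was high in both lines and moved in opposite directions with the vector and with targeting in MDA-MB-231. Its level was 645, 600 and 659 CPM in the MDA-MB-231 wild type libraries, 434, 404 and 418 with No gRNA, 560, 521 and 517 in set 1, and 715, 742 and 735 in set 2. None of these groups overlapped, with No gRNA lowest and set 2 highest. The No gRNA libraries were lower than the wild type by a log2 difference of -0.65 (SE 0.04, adjusted p = 1.38e-07), set 1 was above No gRNA by 0.35 (SE 0.04, adjusted p = 7.63e-05) and set 2 by 0.83 (SE 0.04, adjusted p = 2.3e-08). Set 2 exceeded set 1 by 0.48 (SE 0.04, adjusted p = 1.54e-06). Against the wild type in place of No gRNA, set 1 was lower (log2 difference -0.30, adjusted p = 5.13e-05) and set 2 higher (0.17, adjusted p = 0.00385), so the direction in set 1 depended on which control was taken.

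In SUM159 the differences of CCND1 were small. The wild type libraries of run 1 were at 294, 300 and 322 CPM, No gRNA at 281, 281 and 304, gRNA 4 at 262, 342 and 303, and All gRNA at 388, 354 and 333. The All gRNA libraries lay above all wild type and No gRNA libraries, and the gRNA 4 libraries overlapped with both. All gRNA was higher than No gRNA by 0.31 on the log2 scale (SE 0.09, adjusted p = 0.0415), a call that was lost in 5 of the 6 fits that left out a library of these groups, with adjusted p up to 0.131. Its reads may include those of LTO1, which overlaps its end on the opposite strand, since whether the counting used strand is not given in the sources used here.

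CCND2, the D cyclin with the fewest counts, gave changes of opposite sign with the vector in the 2 lines. In SUM159 it was at 17.9, 19.6 and 19.0 CPM in the wild type of run 1 and at 11.8, 7.27 and 6.70 with No gRNA, without overlap. It fell by 1.18 on the log2 scale (SE 0.17, adjusted p = 0.000227) and stayed between 5.92 and 9.20 CPM with gRNA 4 and All gRNA. Neither targeted group passed the test against No gRNA, with 95% intervals of -0.69 to 0.22 for gRNA 4 and -0.39 to 0.47 for All gRNA. The MDA-MB-231 libraries held 3.76, 10.4 and 3.83 CPM in the wild type, 13.8, 12.4 and 19.7 with No gRNA, 25.5, 25.3 and 18.5 in set 1, and 5.39, 8.47 and 4.06 in set 2. The vector libraries without guide all lay above the wild type, set 1 overlapped with them, and set 2 lay below both.

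The rise with No gRNA in MDA-MB-231 was 1.44 (SE 0.36, adjusted p = 0.00587), and ranged from 1.18 to 1.92 when single libraries were left out, with the call kept. The 1.92 came without replicate 2 of the wild type, which was at 10.4 CPM. Set 1 against No gRNA did not pass (0.62, SE 0.27, adjusted p = 0.0949), and set 2 was lower by a log2 difference of -1.35 (SE 0.36, adjusted p = 0.00811). Set 2 fell below set 1 by 1.97 (SE 0.35, adjusted p = 0.000593). Against the wild type set 2 gave 0.09 (adjusted p = 0.896), so its fall is one from the No gRNA level. CCND2-AS1 lies on the opposite strand at its start.

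CCND3, the only D cyclin with windows in the promoter search, rose with the vector in SUM159. The wild type libraries of run 1 held 155, 135 and 156 CPM, No gRNA 217, 209 and 224, gRNA 4 232, 258 and 264, and All gRNA 277, 233 and 233. All vector libraries lay above all wild type libraries, and all targeted libraries above all No gRNA libraries. The rise with No gRNA was 0.54 (SE 0.08, adjusted p = 0.000336). The wild type itself differed between runs, with 85.8 ± 12.6 CPM in run 2. The further differences with gRNA 4 (0.20, SE 0.08, adjusted p = 0.143) and with All gRNA (0.18, SE 0.08, adjusted p = 0.179) did not pass.

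In MDA-MB-231 the level of CCND3 was lower throughout, at 72.1 ± 7.11 CPM in the wild type, 58.3 ± 5.16 with No gRNA, 62.9 ± 4.94 in set 1 and 74.4 ± 4.50 in set 2. With No gRNA it fell by 0.35 (SE 0.09, adjusted p = 0.00793), although the libraries of these groups touched (64.0 against 63.9 CPM). It was higher in set 2 than in No gRNA by 0.38 (SE 0.09, adjusted p = 0.00561), and in set 1 it was not called (0.11, SE 0.10, adjusted p = 0.395). Set 2 and set 1 differed by 0.26 (SE 0.09, adjusted p = 0.0363), which was lost in 4 of 6 fits with a library left out. Against the wild type, set 2 gave 0.02 (adjusted p = 0.87).

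CDK4, the kinase partner of the D cyclins in most epithelia, was the steadiest of the genes. In SUM159 it was at 229 ± 3.71 CPM in the wild type of run 1, 209 ± 1.90 with No gRNA, 198 ± 11.9 with All gRNA and 199 ± 8.75 with gRNA 4. The fall with No gRNA was 0.14 (SE 0.05, adjusted p = 0.0431) and missed the threshold in each of the 6 fits with a library left out, where adjusted p was 0.0524 to 0.116. The 95% interval of the targeted groups against No gRNA was -0.20 to 0.03 in both. In MDA-MB-231 the wild type libraries held 204, 204 and 197 CPM and the No gRNA libraries 155, 145 and 161, a fall of 0.45 (SE 0.04, adjusted p = 3.31e-06) without overlap. Set 1 (164 ± 1.73 CPM) and set 2 (152 ± 4.95 CPM) stayed near the No gRNA level, with log2 differences from it of 0.10 (95% interval 0.01 to 0.20, adjusted p = 0.0811) and 0.01 (-0.08 to 0.11, adjusted p = 0.841). TSPAN31 and MARCHF9 overlap CDK4 on the opposite strand.

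CDK6, which takes the place of CDK4 in part and is linked to differentiation state, changed with the vector in SUM159 and with targeting in MDA-MB-231. The SUM159 wild type libraries of run 1 held 283, 269 and 263 CPM, and the No gRNA libraries 150, 147 and 147. The fall was 0.88 (SE 0.09, adjusted p = 9.41e-06), and gRNA 4 (159 ± 13.3 CPM) and All gRNA (161 ± 22.2 CPM) overlapped with No gRNA. Their intervals against No gRNA were -0.11 to 0.29 and -0.09 to 0.31. In SUM159 wild type of run 2, CDK6 was at 126 ± 11.7 CPM, below all No gRNA libraries. In MDA-MB-231 it was at 144, 155 and 178 CPM in the wild type, 182, 175 and 187 with No gRNA, 271, 277 and 295 in set 1, and 204, 215 and 226 in set 2. Set 1 stood above all other groups of the line, set 2 came next, and No gRNA overlapped with the wild type. Set 1 exceeded No gRNA by 0.63 (SE 0.06, adjusted p = 1.79e-05) and set 2 did by 0.26 (SE 0.07, adjusted p = 0.00618), while No gRNA against the wild type was not called (0.14, SE 0.07, adjusted p = 0.12). Set 2 was below set 1 by a log2 difference of -0.37 (SE 0.06, adjusted p = 0.0005).

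CDKN1A, which encodes p21, gave the largest change of the tested genes against No gRNA, in set 1 of MDA-MB-231. In MDA-MB-231 its level was 58.6, 53 and 50.2 CPM in the wild type, 113, 103 and 109 with No gRNA, 347, 352 and 338 in set 1, and 103, 101 and 104 in set 2. Set 1 stood far above every other group, and set 2 overlapped with No gRNA. It rose with the vector by 0.96 (SE 0.06, adjusted p = 1.16e-07). It rose further in set 1 by 1.68 (SE 0.04, adjusted p = 3.13e-10, TREAT adjusted p = 1.96e-06), and in set 2 it did not pass (-0.05, 95% interval -0.17 to 0.06, adjusted p = 0.413). Set 2 was lower than set 1 by a log2 difference of -1.74 (SE 0.05, adjusted p = 8.72e-11). With the wild type as control both sets were higher, by 2.64 (adjusted p = 9.19e-12) in set 1 and 0.90 (adjusted p = 7.48e-07) in set 2. ZEB1 was nearly equally low in both sets, as given above.

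In SUM159 CDKN1A took another course. It was at 97.2, 91.0 and 92.8 CPM in the wild type of run 1, 60.3, 60.1 and 60.3 with No gRNA, 79.7, 76.7 and 70.7 with All gRNA, and 69.2, 71.5 and 73.9 with gRNA 4. The wild type was highest, No gRNA lowest, and the targeted groups lay between them without overlapping with either. The vector lowered it by a log2 difference of -0.64 (SE 0.06, adjusted p = 6.94e-06). It was higher than No gRNA by 0.33 with All gRNA (SE 0.06, adjusted p = 0.00564) and by 0.24 with gRNA 4 (SE 0.06, adjusted p = 0.0316), the latter lost in 5 of 6 fits with a library left out. Against the wild type both were lower, by log2 differences of -0.32 (adjusted p = 0.000786) and -0.41 (adjusted p = 0.000158).

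CDKN1B, which encodes p27, is controlled largely through protein turnover by the SKP2 ubiquitin ligase. The highest group mean of its RNA was 1.74 times the lowest. In SUM159 the group means were 34.7 to 42.0 CPM in run 1 and none of the comparisons passed. In MDA-MB-231 it was at 33.8, 26.3 and 27.2 CPM in the wild type, 38.0, 45.7 and 45.8 with No gRNA, 32.7, 34.6 and 42.3 in set 1, and 30.3, 24.7 and 30.7 in set 2. All No gRNA libraries lay above those of the wild type and of set 2. It rose with the vector by 0.52 (SE 0.13, adjusted p = 0.00568) and was lower in set 2 than in No gRNA by a log2 difference of -0.58 (SE 0.13, adjusted p = 0.00343). Set 1 against No gRNA did not pass (-0.24, SE 0.13, adjusted p = 0.157). GPR19 overlaps CDKN1B on the opposite strand.

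CDKN1C, which encodes p57 from an imprinted region of chromosome 11, was low in both lines and readable in MDA-MB-231. It was at 3.20, 2.97 and 2.80 CPM in the wild type, 5.32, 4.62 and 4.38 with No gRNA, 8.36, 9.14 and 8.62 in set 1, and 2.67, 2.26 and 2.55 in set 2. The 4 groups did not overlap, with set 1 highest and set 2 lowest. It rose with the vector by 0.61 (SE 0.14, adjusted p = 0.00297) and in set 1 by a further 0.87 (SE 0.11, adjusted p = 0.000113), and in set 2 it fell by 0.91 below No gRNA (SE 0.15, adjusted p = 0.000299). Set 2 was below set 1 by a log2 difference of -1.78 (SE 0.14, adjusted p = 8.08e-07, TREAT adjusted p = 0.00392). Against the wild type set 1 was higher by 1.49, and set 2 gave -0.29 (adjusted p = 0.176). Of its 3 tested neighbours on chromosome 11, SLC22A18 rose with the vector from 1.39 to 7.40 CPM (log2 difference 2.34, SE 0.24, adjusted p = 7.68e-06) and was at 7.15 CPM in set 1 and 1.63 CPM in set 2. PHLDA2 rose in set 1 by 0.47 (SE 0.10, adjusted p = 0.00324).

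The INK4 genes CDKN2A and CDKN2B were not tested, since neither passed the filter. CDKN2A was at 0 in 17 of the 27 libraries, all 12 of MDA-MB-231 among them, and its highest value was 2.20 counts in a library. CDKN2B was at 0 in 26 of 27 libraries, with 0.994 counts in 1 library of SUM159 wild type of run 2. Both stayed under a floor of 3 counts in each library, so no difference in either was detectable at this depth. Nearby genes were examined for comparison. KLHL9 was at 3.78 ± 0.318 CPM in SUM159 wild type of run 1, 9.67 ± 0.696 in that of run 2 and at most 0.128 CPM in any MDA-MB-231 library. ELAVL2 was at 12.2 ± 1.94 CPM in SUM159 wild type of run 1, 1.49 ± 0.322 in that of run 2 and listed at 0 in all 12 MDA-MB-231 libraries. MTAP, which lies next to CDKN2A, was between 0.116 and 1.71 CPM in both lines. The opposite strand gene CDKN2B-AS1 was between 0.645 and 1.54 CPM in SUM159 and at most 0.352 CPM in MDA-MB-231. The copy number of the locus was not measured here.

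The other genes of the pathway were described in 5 lists. Since they were chosen with earlier results known, counts and medians are given without a test of the list.

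**Figure D3:**
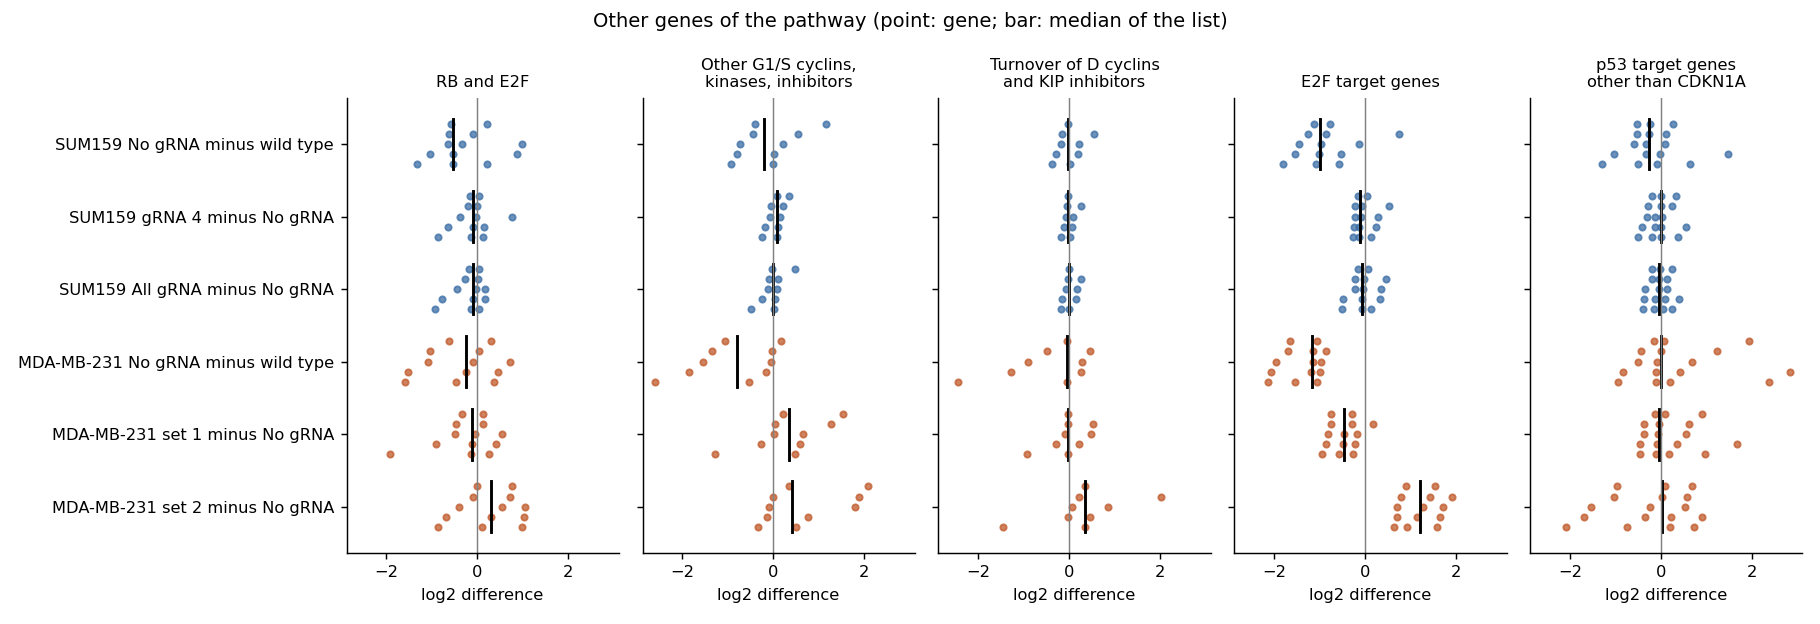
Log2 difference (horizontal axes) of each gene of 5 pathway lists in 6 comparisons (rows), with a bar at the median of the list, SUM159 in blue and MDA-MB-231 in orange. The 14 E2F target genes lie below 0 in MDA-MB-231 No gRNA against wild type, with a median of -1.17, and above 0 in set 2 against No gRNA, with a median of 1.19. Both comparisons use the same No gRNA libraries.

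The E2F target genes, which encode replication proteins and are read as a sign of S phase entry, changed together with the vector. In MDA-MB-231 all 14 were lower with No gRNA than in the wild type, against 27.6% of all genes (median log2 difference -1.17, against 0.00 for all genes). RRM2, a subunit of ribonucleotide reductase, fell by 2.13 (SE 0.06, adjusted p = 3.08e-10), and the replicative helicase subunits MCM5 and MCM4 fell by 2.07 and 1.97. In SUM159 12 of 14 were lower with No gRNA, against 21.9% of all genes (median -1.0, against 0.02), with TYMS and RRM2 falling by 1.54 and 1.46. The genes of the vector comparison in SUM159 thus included lower CDK6, lower CDKN1A and lower E2F targets, and in MDA-MB-231 lower CCND1, lower CDK4, higher CDKN1A and lower E2F targets.

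Under targeting the 2 sets of MDA-MB-231 parted. In set 1, 12 of 14 E2F targets were lower than in No gRNA (17.3% of all genes) and 0 were higher (median -0.48, against -0.01), with MCM5 and TYMS falling by 0.87 and 0.83. In set 2 all 14 were higher, against 27.3% of all genes (median 1.19, against -0.01), with MCM5, MCM4 and MCM3 rising by 1.91, 1.71 and 1.65. All 14 were higher in set 2 than in set 1, against 25.2% of all genes (median 1.68, against -0.03). In SUM159 few passed, with 2 higher and 1 lower of 14 under All gRNA (5.93% and 4.89% of all genes) and 1 higher and 1 lower under gRNA 4 (6.11% and 4.91%).

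**Figure D4:**
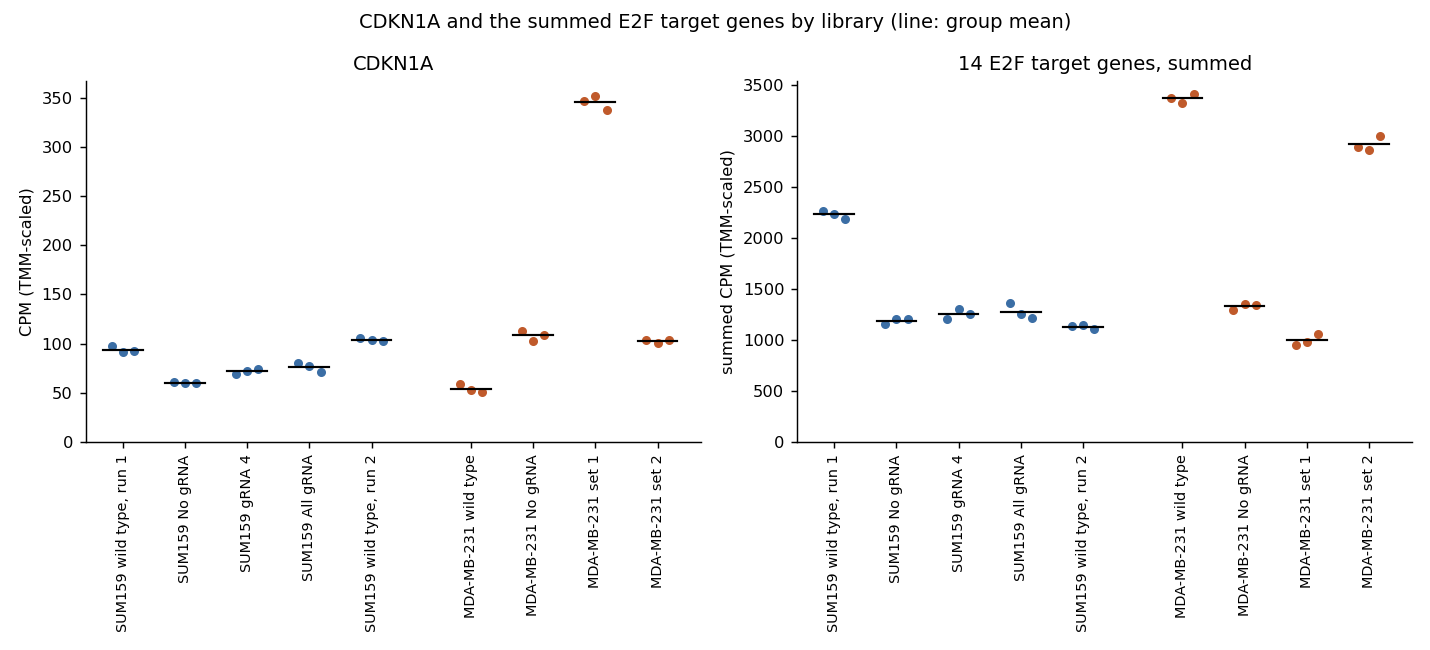
CDKN1A (left) and the sum over 14 E2F target genes (right), both in TMM-scaled CPM from 0, for each library, with lines at group means of 3. In MDA-MB-231 the wild type and set 2 have the high E2F target sums (3365 and 2914 CPM) and set 1 has both the lowest sum (992 CPM) and the highest CDKN1A (346 CPM).

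The summed level of the 14 E2F targets was 3365 ± 47.5 CPM in MDA-MB-231 wild type, 1328 ± 33.8 with No gRNA, 992 ± 55.1 in set 1 and 2914 ± 70.9 in set 2. In SUM159 it was 2227 ± 40.3 CPM in the wild type of run 1, 1187 ± 29.5 with No gRNA, 1273 ± 72.4 with All gRNA, 1249 ± 49.2 with gRNA 4 and 1127 ± 19.6 in the wild type of run 2. The sum thus differed about as much between the SUM159 wild types of the runs as between wild type and No gRNA within run 1. Whether the share of cycling cells moved the values of the D cyclins and inhibitors was not tested.

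Among the retinoblastoma family and E2F factors, 3 of 13 were higher and 7 lower with the vector in MDA-MB-231 (26.2% and 27.6% of all genes), and 3 were higher and 8 lower in SUM159 (21.0% and 21.9%). The counts of higher genes were thus near the share of all genes. E2F2, E2F8 and the dimer partner TFDP1 fell by 1.59, 1.53 and 1.09 in MDA-MB-231. In SUM159 E2F7 and E2F1 fell by 1.33 and 1.03, and TFDP2 rose by 0.98. Set 1 gave 2 higher and 4 lower (20.4% and 17.3% of all genes), with E2F2 and E2F1 falling by 1.91 and 0.92 and E2F4 rising by 0.54. Set 2 gave 7 higher and 3 lower (27.3% and 25.1%), with E2F8, TFDP1 and E2F1 rising by 1.05, 1.02 and 0.97. In SUM159 E2F1 was lower in both targeted groups, at 14.3 CPM with No gRNA, 8.27 with All gRNA (log2 difference -0.79, SE 0.10, adjusted p = 0.000433) and 7.86 with gRNA 4 (-0.87, SE 0.11, adjusted p = 0.000226).

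The later G1/S cyclins, kinases and inhibitors fell with the vector in 6 of 10 cases in MDA-MB-231 (27.6% of all genes) with 0 higher (26.2%), and in 5 of 10 in SUM159 (21.9%) with 2 higher (21.0%). In MDA-MB-231 the E cyclins CCNE2 and CCNE1 fell by 2.61 and 1.54, and CDC25A, the phosphatase that activates CDK2, fell by 1.85. In SUM159 CCNE2 and CDK2 fell by 0.93 and 0.81, and CDKN2D, an INK4 gene that encodes p19, rose by 1.17 from 2.10 to 4.79 CPM. Set 1 and set 2 each had 6 of 10 above No gRNA (20.4% and 27.3% of all genes), with 2 below in set 1 (17.3%) and 1 in set 2 (25.1%). CCNE1 and CDC25A rose in both sets, by 1.53 and 1.26 in set 1 and by 2.07 and 1.89 in set 2. The INK4 gene CDKN2C, which encodes p18, was at 13.4 CPM with No gRNA, fell to 5.57 in set 1 (log2 difference -1.28, SE 0.13, adjusted p = 1.34e-05) and was higher in set 2 than in set 1 by 1.61 (16.6 CPM, SE 0.12, adjusted p = 7.99e-07). With All gRNA in SUM159 CDKN2C was the 1 of 10 called lower by the moderated test (4.89% of all genes), falling by 0.50 (SE 0.10, adjusted p = 0.00652). With All gRNA 0 were higher (5.93%). With gRNA 4 in SUM159 the moderated test called 0 of the 10 higher or lower (6.11% and 4.91%). There edgeR called 0, DESeq2 called 1, and 4 had an unadjusted p under 0.05 in the moderated test.

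The genes that turn over D cyclins and CIP/KIP inhibitors were led by SKP2, the ligase subunit that targets p27. SKP2 fell with the vector in MDA-MB-231 from 81.4 to 15.7 CPM (log2 difference -2.44, SE 0.12, adjusted p = 1.33e-08), was at 8.23 CPM in set 1 (-0.93 against No gRNA, SE 0.17, adjusted p = 0.00117) and at 61.4 CPM in set 2 (2.01, SE 0.12, adjusted p = 1.04e-07). Its cofactor CKS1B fell by 1.27 with the vector and rose by 0.86 in set 2. Over the list, 0 of 9 were higher and 4 lower with the vector (26.2% and 27.6% of all genes), 1 higher and 1 lower in set 1 (20.4% and 17.3%), and 4 higher and 1 lower in set 2 (27.3% and 25.1%). In SUM159 1 was higher and 2 lower with the vector (21.0% and 21.9%, near the share of the list), with FBXO4 rising by 0.53 and SKP2 falling by 0.39. The moderated test called 0 higher or lower under All gRNA (5.93% and 4.89% of all genes) and under gRNA 4 (6.11% and 4.91%). By edgeR and DESeq2 0 were called in either targeted group. In the moderated test 1 had an unadjusted p under 0.05 under All gRNA and 0 under gRNA 4.

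Among 17 p53 target genes other than CDKN1A, 6 were higher and 3 lower with the vector in MDA-MB-231 (26.2% and 27.6% of all genes), and 2 higher and 7 lower in SUM159 (21.0% and 21.9%). These moderated counts in MDA-MB-231 were thus not far from the share of all genes. TREAT, however, called 4 of the 17 higher and 0 lower there (3.60% of all genes in either direction). In SUM159 it called 0 higher and 1 lower with the vector (1.53%). SESN2, BBC3 and GADD45A rose by 2.83, 2.36 and 1.93 in MDA-MB-231, while SESN2 fell by 1.31 in SUM159. Set 1, in which CDKN1A rose, gave 5 higher and 2 lower (20.4% and 17.3% of all genes), with BTG2, ZMAT3 and AEN rising by 1.67, 0.97 and 0.89. The classical target MDM2 is on the list but was not among the 3 largest changes. Set 2 gave 3 higher and 6 lower (27.3% and 25.1%), with SESN2, BBC3 and GADD45A falling by 2.10, 1.69 and 1.55. TREAT called 0 higher and 3 lower in set 2 (4.14% of all genes in either direction) and 0 in set 1 (1.47%). In SUM159 the moderated test called 0 of 17 higher or lower under All gRNA (5.93% and 4.89% of all genes), where edgeR called 1 and DESeq2 3. There 5 had an unadjusted p under 0.05 in the moderated test. With gRNA 4, 1 was higher and 2 lower (6.11% and 4.91%), and FAS rose by 0.54.

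The lines were compared in the wild type of the shared run 2. SUM159 was higher than MDA-MB-231 for 3 of the 8 genes tested (37.0% of all genes) and lower for 3 (38.6%). CDKN1A was at 105, 103 and 103 CPM in SUM159 against 58.6, 53 and 50.2 in MDA-MB-231 (log2 difference 0.95, SE 0.06, adjusted p = 9.73e-06). CCND1 was at 475, 485 and 451 CPM in SUM159 and lower than in MDA-MB-231 (-0.43, SE 0.04, adjusted p = 8.36e-05). CDKN1C was at 1.13, 0.899 and 1.09 CPM in SUM159 and also lower (-1.5, SE 0.21, adjusted p = 0.000455). CCND2 (1.35, SE 0.36, adjusted p = 0.0105) and CDK4 (0.14, SE 0.04, adjusted p = 0.0148) were higher in SUM159, and CDK6 was lower (-0.34, SE 0.10, adjusted p = 0.0141). Each of these 3 calls was lost in 1 fit with a library left out, with adjusted p of 0.0509 for CCND2 and 0.0655 for CDK4 without MDA-MB-231 replicate 3 and of 0.0533 for CDK6 without SUM159 replicate 3. CCND3 (0.25, 95% interval -0.04 to 0.54) and CDKN1B (-0.23, -0.53 to 0.08) did not pass. In this comparison 13 of 14 E2F targets were lower in SUM159, TYMS by the most (20.5 against 355 CPM), and all 10 of the later G1/S genes were lower, against 38.6% of all genes.

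The SUM159 wild type differed between its runs for most of the genes, with 3 of 8 higher in run 2 (31.3% of all genes) and 4 lower (30.9%). CDK6 was lower in run 2 by a log2 difference of -1.11 (126 ± 11.7 against 272 ± 10.5 CPM, SE 0.07, adjusted p = 1.47e-05) and CCND3 by -0.80 (85.8 ± 12.6 against 149 ± 11.8 CPM, SE 0.11, adjusted p = 0.000612). CDKN1B was lower by -0.69 (SE 0.09, adjusted p = 0.00061), while CCND1 was higher by 0.63 (470 ± 17.2 against 305 ± 14.7 CPM, SE 0.05, adjusted p = 3.32e-05). CDK4 did not pass (-0.04, adjusted p = 0.397). CDKN1C was at 1.04 ± 0.124 CPM in run 2 against 0.127 ± 0.0971 in run 1, where counts were too few for a fold. ELAVL2, named here after its values were seen, was at 1.49 CPM in run 2 against 12.2 in run 1. Run and culture cannot be told apart here, and the run difference bears on each comparison that crosses lines. Of the 5 genes called with the vector in SUM159, CDK6 and CCND3 had a run difference larger in size than the vector difference (-0.88 and 0.54). For CCND2 (-0.47), CDK4 (-0.04) and CDKN1A (0.15) the run difference was smaller than the vector difference (-1.18, -0.14 and -0.64). Whether culture differences of this kind entered the vector comparison was not tested.

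**Figure D5:**
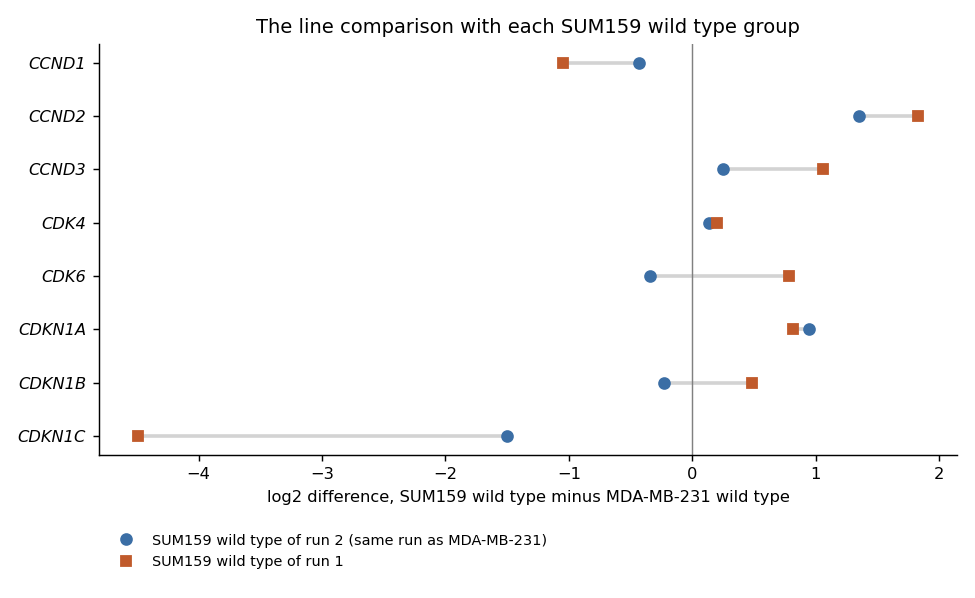
Log2 difference between SUM159 and MDA-MB-231 wild type (horizontal axis) for 8 genes, with SUM159 wild type of run 2 (circles) or run 1 (squares). CDK6 and CDKN1B change sign with the run, from -0.34 to 0.79 and from -0.23 to 0.48, while CDKN1A stays at 0.95 and 0.81.

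With the run 1 wild type in its place, CDK6 was higher in SUM159 than in MDA-MB-231 (0.79, adjusted p = 4.36e-05) and so was CDKN1B (0.48, adjusted p = 0.00432), both against the direction in run 2. CCND3 was then higher by 1.06 (adjusted p = 3.25e-05). CCND1 remained lower (-1.04) and CDKN1A, CCND2 and CDK4 remained higher (0.81, 1.83 and 0.20). The order of the lines therefore held in both wild type groups for CCND1, CCND2, CDK4, CDKN1A and CDKN1C, and for CDK6 and CDKN1B it did not.

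Whether the lines differed in their response was tested as an interaction, the effect in SUM159 minus that in MDA-MB-231, which sets run 1 against run 2. For the vector effect the term was positive for 3 of 8 genes (17.4% of all genes) and negative for 4 (18.8%). It was -1.66 for CDKN1A (SE 0.08, adjusted p = 1.82e-12), which fell in SUM159 and rose in MDA-MB-231, and -2.68 for CCND2 (SE 0.41, adjusted p = 2.49e-05), which did likewise. CCND3, which rose in SUM159 and fell in MDA-MB-231, had 0.83 (SE 0.14, adjusted p = 5.73e-05). CDK6 had -1.09 (SE 0.12, adjusted p = 2.24e-07). For targeting, with both guide groups of a line averaged, the term was positive for 0 of 8 genes (13.0%) and negative for 3 (12.4%), namely CDKN1A, CCND1 and CDK6. The averages join set 1 and set 2, which differ in CDKN1A by 1.74. The term for CDKN1A was -0.51 with both sets, -1.41 with gRNA 4 and set 1, and 0.40 (adjusted p = 0.00044) with All gRNA and set 2. Since the labels of the sets conflict, these are not known to be matched guides. The pairings of gRNA 4 with set 2 and of All gRNA with set 1 were not fitted.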

How the data were processed

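RNA was sequenced from 27 libraries as 50 bp single-end reads. Salmon and tximport were used by the authors, and the deposited file gives each gene an estimated count per library. Per the labels the genome build was GRCh38. The Salmon version, the annotation and the strand setting are not given in the sources used here. Of 57165 gene identifiers, 41779 were matched to a symbol in GENCODE v44.

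Low genes were removed (filterByExpr, minimum count 10), and the rest scaled by TMM and fitted with voom in limma 3.58.1 (R 4.3.3, edgeR 4.0.16), which the authors also used with TREAT. The moderated test is the main call, at a Benjamini-Hochberg adjusted p under 0.05 over all genes. The log2 fold change of 1 for TREAT was chosen here. Each line was fitted on its 12 libraries, wild type comparisons on 6, and interactions on 24. Counts were rounded to whole numbers for DESeq2 1.42.0. An exact permutation test of 3 against 3 cannot fall below 0.1, so its values were not used for calls.

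The genes, lists and tests were chosen with earlier results of these data known. From each list, at most the 3 genes with the largest change among those called in a comparison were named, and some genes that these rules select are not reported here. Values outside this rule are given only as levels or with the remark that they were chosen after the values were seen. The script was tested on simulated counts. Replicate numbers do not pair the samples: same-numbered deviations correlated by -0.065 to 0.045. Every replicate pair differed by more than sampling noise (chi-square per degree of freedom 8.43 to 20.8). Alternatives were another normalization, filter, tool, control group, block and the omission of each library. MDA-MB-231 groups whose labels conflict were kept as set 1 and set 2. Estimated counts carry no molecular identifiers, and the floor of 3 counts covers counting error only.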

Additional observations from a re-analysis of the deposited data

Results flagged for a closer look

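For 7 of the 8 genes tested the effect of the vector without guide differed between the lines by the interaction term (SUM159 minus MDA-MB-231, limma on 24 libraries). It was positive for 3 (17.4% of all genes) and negative for 4 (18.8%). The term was 0.5022 for CCND1 (SE 0.0977, adjusted p = 0.000366), which fell in MDA-MB-231 and was not called in SUM159. It was -2.684 for CCND2 and -1.665 for CDKN1A, which fell in SUM159 and rose in MDA-MB-231, and 0.8301 for CCND3, which did the reverse. CDK4, which fell in both lines, had 0.246 (SE 0.0625, adjusted p = 0.00387). CDK6 had -1.089 and CDKN1B -0.5905 (SE 0.185, adjusted p = 0.0163), the latter missing the threshold without SUM159 No gRNA replicate 3 (-0.499, adjusted p = 0.0518).

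For 3 of the 8 genes tested the averaged effect of targeting ZEB1 differed between the lines. All 3 terms were negative (12.4% of all genes), and 0 were positive (13.0%). The term was -0.3891 for CCND1 (SE 0.0864, adjusted p = 0.00212), -0.3248 for CDK6 (SE 0.102, adjusted p = 0.0235) and -0.5069 for CDKN1A (SE 0.0673, adjusted p = 1.01e-05). The averages hide the difference between set 1 and set 2, and each gene kept a called negative term in 1 of the pairings fitted. These pairings follow 1 of the conflicting labels of the sets, and the crossed pairings were not fitted. With gRNA 4 and set 1 the term was -1.414 for CDKN1A (adjusted p = 4.36e-11), -0.5159 for CDK6 (adjusted p = 0.00315) and -0.2761 for CCND1 (adjusted p = 0.0592). With All gRNA and set 2 it was -0.5021 for CCND1 (adjusted p = 0.000373), -0.1336 for CDK6 (adjusted p = 0.418) and 0.4002 for CDKN1A (adjusted p = 0.00044). All these terms set libraries of run 1 against libraries of run 2, so run and line cannot be told apart in them beyond what the shared controls within each run remove.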

How the results depend on the processing

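Of 92 tested results on the genes, 54 were called. Under the alternatives these gave 782 values, of which 727 kept direction and call, 49 lost the call and 6 changed sign. The 38 results not called gave 580 values, of which 516 stayed, 14 gained a call and 50 changed sign. The changes of sign of called results came with another control (wild type for No gRNA, run 1 for run 2) or with only 1 of the targeted groups in the interaction. Cause was otherwise not tested.

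The count of genes called in SUM159 under All gRNA (against No gRNA) was 1 with library totals, the filter of 1 count or the replicate block, and 0 for gRNA 4 with these, or with only the compared groups fitted. With the wild type as control it was 6 for All gRNA, 5 for gRNA 4, 7 for set 1 and 4 for set 2, with 2 past TREAT in set 1. The shares of all genes called under these alternatives are not reported here, so the counts are not set against them. TREAT called 1 gene between the lines by edgeR and with the run 1 wild type. With a library left out the counts ran from 1 to 2 for All gRNA, 0 to 1 for gRNA 4 and 0 to 1 for TREAT between the lines, where the 1 came without MDA-MB-231 wild type replicate 2.

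The replicate numbers do not pair the samples. The block made CDKN1B in SUM159 No gRNA against wild type 0.002628, took the call from CDK4 there (-0.1374, adjusted p = 0.0575), from CCND1 with All gRNA (0.3062, adjusted p = 0.0707), from CDKN1A with gRNA 4 (0.2382, adjusted p = 0.0527) and from CDKN1A between runs (0.1502, adjusted p = 0.0504), and gave one to CDK6 in MDA-MB-231 No gRNA against wild type (0.1374, adjusted p = 0.0342).

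With the wild type as control, All gRNA gave -1.143 for CCND2, -0.771 for CDK6 and -0.317 for CDKN1A, and gRNA 4 gave -0.03857 for CCND1, -0.7956 for CDK6 and -0.4054 for CDKN1A. Set 1 gave -0.302 for CCND1, -0.2407 for CCND3, -0.3446 for CDK4 and 0.279 for CDKN1B, and set 2 gave 0.08737 for CCND2, -0.4371 for CDK4 and 0.901 for CDKN1A. The run 1 wild type gave 0.7867 for CDK6 and 0.4824 for CDKN1B between the lines. The targeting interaction was 0.4002 for CDKN1A and 0.4897 for CDKN1C with All gRNA and set 2, and -0.8233 for CCND2 and 0.1171 for CCND3 with gRNA 4 and set 1.

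Other changes of sign were of values near 0. CDKN1B in SUM159 No gRNA against wild type was 0.006332 with library totals, 0.0003338 with the low filter, 0.007337 by edgeR, 0.004215 by DESeq2 and 0.006697 with the compared groups only. CDK4 in set 2 against No gRNA was -0.04944 with library totals, -0.001634 by edgeR and -0.001153 with the compared groups only, and between runs it was 0.003642 with library totals. CDK4 in All gRNA against gRNA 4 was -0.004444 with DESeq2 size factors, -0.006101 with the low filter and -0.004165 by DESeq2. CCND2 in All gRNA against No gRNA was -0.003916 by edgeR and -0.007229 by DESeq2.

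With a library left out, values that changed sign ran from -0.04375 to 0.1451 for CCND1 with gRNA 4, -0.1243 to 0.2966 for CCND2 with All gRNA, -0.3973 to 0.02154 for CCND2 with gRNA 4, -0.1003 to 0.02544 for CCND3 in the targeting interaction, -0.0141 to 0.04733 for CDK4 in set 2, -0.1024 to 0.1731 for CDKN1B with gRNA 4 and -0.06 to 0.09173 for CDKN1B in SUM159 No gRNA against wild type. Between All gRNA and gRNA 4 they ran from -0.09959 to 0.0278 for CCND3, -0.03638 to 0.04657 for CDK4 and -0.07928 to 0.1191 for CDK6. CDKN1A between runs (0.1236 to 0.1718) lost its call in 5 of 6 such fits. CDKN1C, CDKN2A and CDKN2B in SUM159 of run 1 were limited by depth.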

Other observations

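As a description, the genes whose 9 group means were most like those of each gene (Pearson's r on log2 CPM over 14045 genes, with line, run and vector shared by the points) were taken. For CDKN1A they were PVR (r = 0.979), FUT1 (0.956) and ATP13A3 (0.945). For CCND1 they were GPR89A (0.989), TRIR (0.983) and ZCCHC18 (0.979), and for CCND2 WAPL (0.953) and PYGB (0.940). CCND3 was most like RPL7 (0.996), TREM2 (0.991) and UGT1A6 (0.989), CDK4 like MRPL33 (0.981) and ZNF500 (0.967), and CDK6 like BLZF1 (0.958), NAA30 (0.951) and WDR43 (0.944). CDKN1B was most like GBP2 (0.964), CNTRL (0.957) and PPFIBP2 (0.941), and CDKN1C like C19orf12 (0.995), CECR2 (0.991) and MAPK11 (0.987).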
